A study of Mus musculus with 48 samples.

Results

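The cytosolic ribosomal protein genes are the 75 protein-coding genes of the count table whose symbols name a protein of the cytosolic ribosome, 30 of the small (40S) subunit and 45 of the large (60S) subunit, out of 27179 gene IDs in all. They were chosen by symbol, as Rps or Rpl followed by a number and at most 1 letter a or x, plus Rplp0, Rplp1, Rplp2 and Rpsa. Pseudogenes, predicted Gm genes and Rpl30 were left out. The only measured value in the rule was that a gene had at least 1 read, and the rule was set with earlier results of these data known. The libraries came from epidermal cell suspensions of mouse skin at 47 weeks of age, sequenced as stranded poly(A) RNA. Mice labelled ColXIV KO and mice labelled ColXIV WT were taken at 0, 4, 8, 12, 16 and 20 h of Zeitgeber time (ZT, counted from lights on), with 4 biological replicates in each of the 12 groups and 48 libraries in all. The labels give no sex, strain background, litter or batch, and they do not say how the knockout was made or in which cells it acts. All 75 members passed the filter on low counts, the lowest count of any member in any library was 2692, and the libraries held between 35.58 and 43.72 M counts each.

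Col14a1, the gene of collagen XIV, stood at 45.3 to 80.1 CPM (counts scaled to a common library total) in the 24 libraries labelled KO and at 0.261 to 4.13 CPM in the 24 labelled WT. This is the opposite of what the labels name, so the groups are called the libraries labelled KO and labelled WT throughout, and the direction of every difference between them rests on the labels. Xist, whose RNA silences 1 of the 2 X chromosomes of female cells, divided the libraries without overlap into 24 at 1317 CPM or more and 24 at 4.25 CPM or less. Of the libraries labelled KO 9 were in the Xist-expressing set, against 15 of those labelled WT, so this difference is partly mixed with the label. Epidermal identity was clear in every library, since 6 basal keratinocyte markers together held at least 18660 CPM and 6 suprabasal markers at least 14430 CPM.

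Ribosomal proteins are made in nearly equal amounts and assembled with ribosomal RNA into the 2 subunits that translate every mRNA. Their mRNAs are among the most abundant in a cell, are short and stable, and most begin with a 5′ terminal oligopyrimidine (TOP) tract, a C followed by a run of C and T at the transcription start. Through that tract the kinase mTOR sets how much of each mRNA is translated, with LARP1 as a TOP-binding repressor, and in mouse liver the translation of these mRNAs is known to follow the time of feeding. Counts of mRNA, the quantity here, do not show translation.

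The start of 9 members is printed because the results below turn on them, with 15 bases on each side of the annotated start and the run of C and T near it in capitals. Sequences are RefSeq promoters of the GRCm38.p6 build, read 5′ to 3′ on the transcribed strand, and 56 of the 75 members had an entry. Rpl14, Rpl31, Rpl28, Rps3 and Rpsa had the smallest p in the test of a 12 h pattern, Rplp2, Rps21 and Rps27 had the weakest such pattern, and Rplp0 had the largest amplitude.
Rpl14, chr9:120571502-120571531, plus strand: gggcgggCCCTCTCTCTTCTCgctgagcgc
Rpl31, chr1:39367836-39367865, plus strand: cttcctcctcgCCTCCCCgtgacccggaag
Rpl28, chr7:4792950-4792979, plus strand: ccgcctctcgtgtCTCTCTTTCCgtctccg
Rps3, chr7:99483695-99483724, minus strand: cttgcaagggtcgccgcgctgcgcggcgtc
Rpsa, chr9:120127751-120127780, plus strand: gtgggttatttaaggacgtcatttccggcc
Rplp0, chr5:115559452-115559481, plus strand: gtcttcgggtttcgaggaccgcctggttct
Rplp2, chr7:141447636-141447665, plus strand: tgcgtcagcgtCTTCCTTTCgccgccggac
Rps21, chr2:180257364-180257393, plus strand: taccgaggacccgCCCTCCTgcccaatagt
Rps27, chr3:90213634-90213663, minus strand: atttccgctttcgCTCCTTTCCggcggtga

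The run searched was a C followed by at least 6 bases that were each C or T, opening within 10 bases of the annotated start. It was present on the transcribed strand in 27 of 66 promoter entries of the members (40.9%), against 12.2% of all 32851 promoters. On the opposite strand it was present in 5 of the 66 entries (7.58%), against 14.3% of all promoters. The window is strict about the annotated start, so an entry without the run, as for Rps3, Rpsa and Rplp0, says only that these letters are not there. The 27 members with the run and the 29 without it had the same median 12 h amplitude, 0.11 on the log2 scale in both; the 12 h component (below 0.05 adjusted p, edgeR) was called for 17 of the 27 and 23 of the 29, a difference that was not tested. The E-box CACGTG, the sequence that BMAL1 and its partner CLOCK are known to bind, was in 8 of the 66 entries (12.1%), against 7.15% of all promoters of the same 300 bases. These entries belonged to 6 of the 56 members with an entry, since Rpl19 and Rpl34 each had it in both of their entries.

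Together the members took 4.53% ± 0.445 of all counts (SD, n = 48 libraries), with a range from 3.78% to 5.83%. Per kilobase of transcript, the 4 highest members were Rplp1 at 2107 CPM per kb, Rps24 at 1767, Rplp0 at 1655 and Rpl13 at 1364. Rplp0 and Rplp1 belong to the stalk, the arm of the large subunit that recruits the elongation factors. The 4 lowest were Rpl29 at 149 CPM per kb, Rps2 at 210, Rpl21 at 243 and Rpl7a at 263. Of these, Rpl29, Rps2 and Rpl7a had 16, 24 and 31 near-identical transcripts of other genes in the annotation, by the rule given below. Rpl21 had none by that rule, which asks for a match over at least 80% of the transcript used. That transcript had 899 bases for Rpl21, so shorter copies would not be counted, and its level per kilobase also rests on that length. The part of shared reads in these levels was not tested. Rps20 was left out of this order because the transcript used for its length was 3706 bases.

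Counting of shared reads bears on many members. A transcript of another gene at least 95% identical over at least 80% of the length was found for 28 of the 75. Rps27 and its near-identical copy Rps27rt had a ratio of counts, copy over member, between 0.993 and 1.02 in every library, and the copy Rpl13-ps6 held 0.799 to 0.822 times the count of Rpl13. How reads with several positions were counted is not given in the sources used here, so the levels of these members are uncertain. Adding the rows named as pseudogenes to their members left every count of called members given here within 1.5 times its value.

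The members rose and fell together from library to library. The first principal component of their log2 levels held 90.1% of their variance and the second 4.24%. The mean log2 level of the family had an SD of 0.16 over the libraries and a range of 0.72, or 1.65-fold, while the SD of a member around the mean of the others was between 0.03 and 0.13, with a median of 0.05. The 5 members that moved most on their own were Rplp2, Rps21, Rpl29, Rps12 and Rplp0, with SDs around the others of 0.13, 0.11, 0.10, 0.10 and 0.09. At the other end, Rpl27a, Rps16 and Rpl12 followed the others to within an SD of 0.03. Most of the spread of the family lay within groups, with a mean SD of 0.15 among the 4 libraries of a group.

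**Figure D1:**
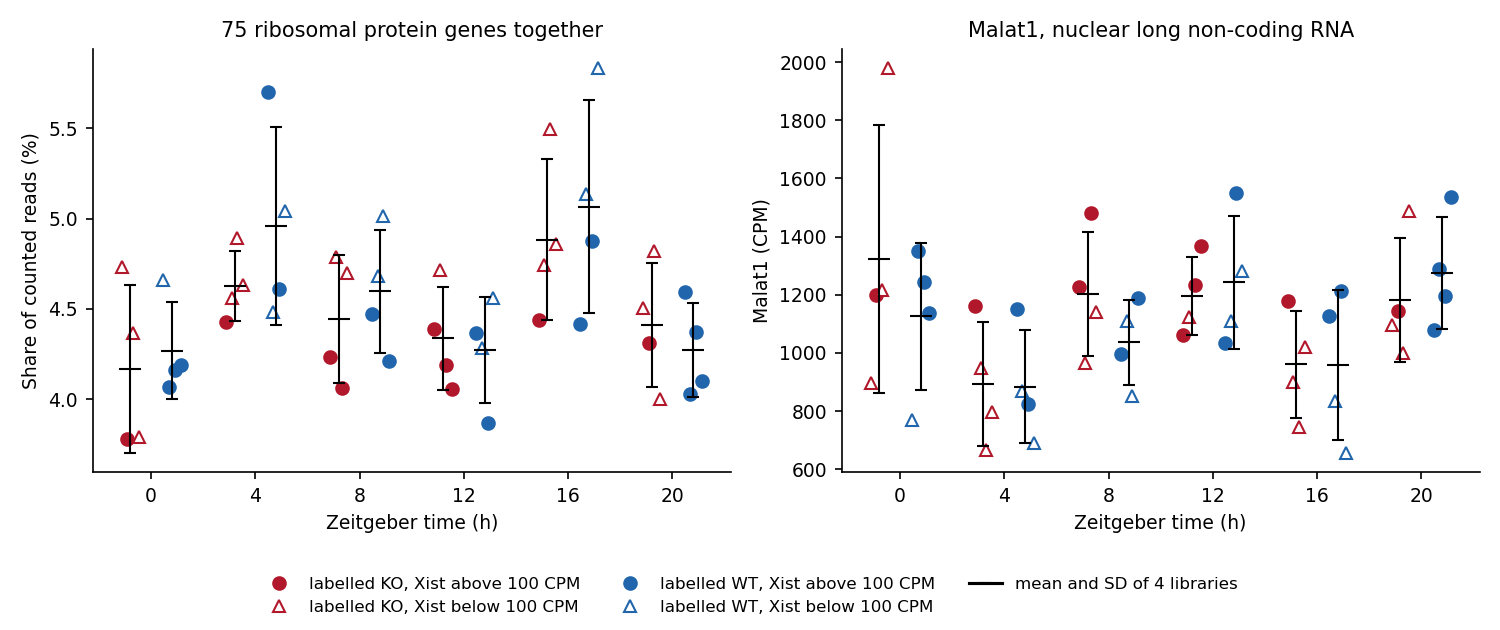
Summed share of counts of the 75 members in percent (left) and level of the nuclear RNA Malat1 in CPM (right), against Zeitgeber time in hours, with libraries labelled KO left of those labelled WT at each time. Filled circles are libraries with Xist above 100 CPM, open triangles the others, and bars are the mean and SD of 4 libraries; the highest shares are 5.83% and 5.70%, in libraries labelled WT at ZT16 and ZT4.

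Between the labels no member differed once all genes were taken into account. The summed share was 4.48% ± 0.394 in the libraries labelled KO and 4.57% ± 0.495 in those labelled WT (SD, n = 24 each). None of the 75 members passed an adjusted p of 0.05 in edgeR's quasi-likelihood test of KO minus WT averaged over the 6 times, against 0.34% of all 17068 genes tested. None had an unadjusted p under 0.05 either, and DESeq2 and limma-voom called 0. The log2 fold changes ran from -0.08 to 0.03 with a median of -0.02, were negative in 64 members, and had standard errors between 0.04 and 0.06. The median over all genes was near 0.

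The 5 members with the smallest p, none of which passed, were Rps29, Rpl38, Rps28, Rpl39 and Rps21, with transcripts of 271 to 612 bases. Rps29, a protein of the 40S head, had a lowest, median and highest level of 270, 334 and 442 CPM in libraries labelled KO, against 269, 361 and 439 CPM in those labelled WT. The ranges overlapped almost wholly, and the log2 fold change was -0.08 ± 0.04 (SE; adjusted p = 0.744, edgeR). Rpl38, a 60S protein needed in mice for the translation of Hox mRNAs, was at 134, 155 and 208 CPM in libraries labelled KO, against 130, 160 and 205 CPM in those labelled WT. Its log2 fold change was -0.06 ± 0.04 (SE; adjusted p = 0.811, edgeR). Rps28 and Rps21, which lie near the mRNA exit of the 40S subunit, had log2 fold changes of -0.07 ± 0.05 and -0.06 ± 0.05, and Rpl39, which lines the exit tunnel of the 60S subunit, -0.06 ± 0.05 (SE). Across 74 members, Spearman's rho between transcript length and this fold change was 0.55, as a description, since the members share libraries.

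**Figure D2:**
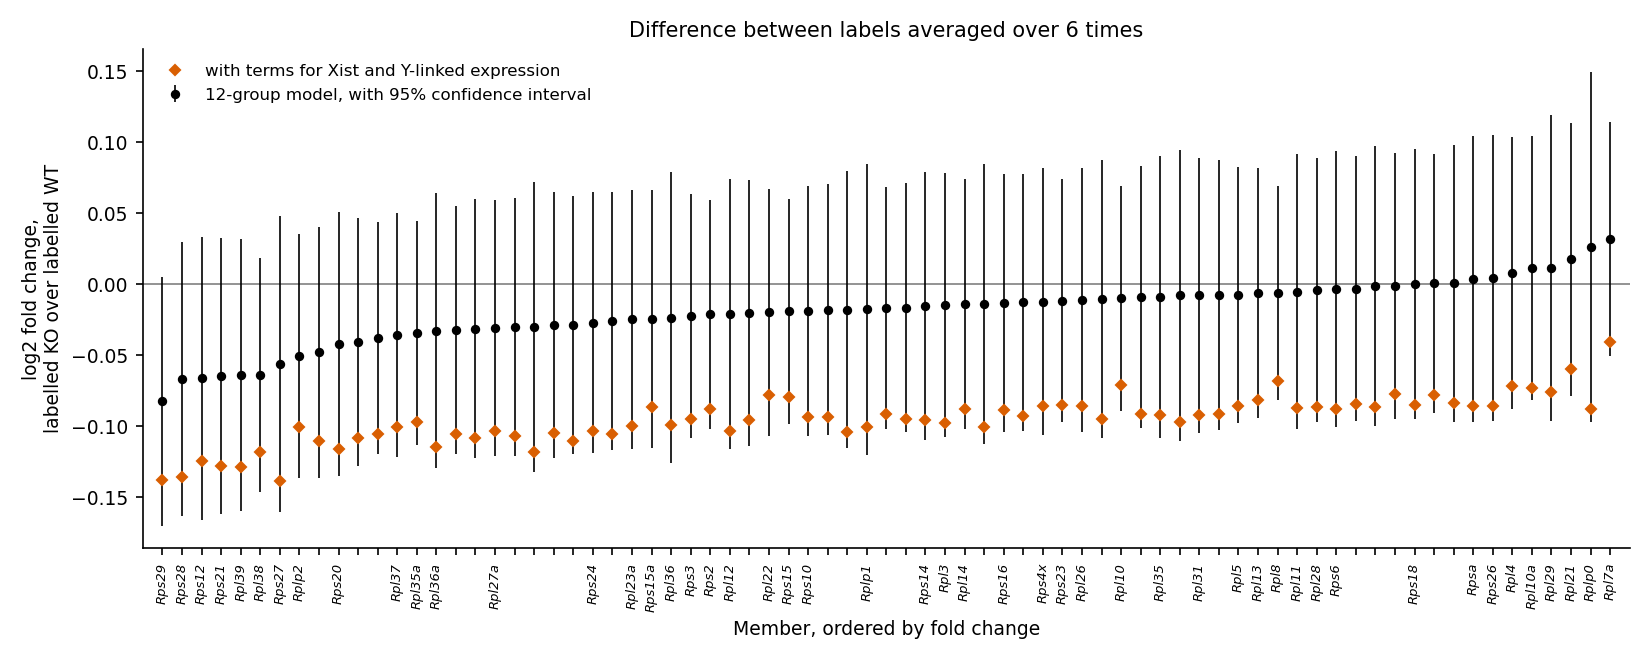
Log2 fold change of each member, libraries labelled KO over libraries labelled WT, averaged over 6 times. Members named in the text carry their names; black points with bars are the 12-group model with 95% confidence intervals, all of which include 0, and orange diamonds are the same model with terms for Xist and Y-linked expression, all below 0.

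The Xist-expressing libraries bear on this comparison. Among them the summed share was 4.21% ± 0.216 in the 9 labelled KO and 4.403% ± 0.445 in the 15 labelled WT (SD). Among the libraries without Xist it was 4.64% ± 0.393 in the 15 labelled KO and 4.86% ± 0.462 in the 9 labelled WT. With terms for Xist and for Y-linked expression, the median log2 fold change over the members was -0.09, with a range from -0.14 to -0.04, and all 75 were negative. No member passed in edgeR then either, with a smallest adjusted p of 0.0561, although 73 had an unadjusted p under 0.05. In that fit 0.762% of all genes passed an adjusted p of 0.05. The share of all genes with an unadjusted p under 0.05 in that fit is not given here.

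At single times no member passed in edgeR, DESeq2 or limma-voom. The shares of all genes called by edgeR were 0.0527% at ZT0, 0.0527% at ZT4 and 0.0762% at ZT8, and then 0.0234% at ZT12, 0.129% at ZT16 and 0.0586% at ZT20. The median log2 fold change over the members, labelled KO over labelled WT, was -0.03 at ZT0, -0.08 at ZT4, -0.05 at ZT8 and -0.06 at ZT16, with 0.01 and 0.10 at ZT12 and ZT20. With the terms for Xist and Y-linked expression the 6 medians, in order of time, were -0.03, -0.22, -0.07, -0.02, -0.16 and -0.07. Still 0 members were called by edgeR. In that fit 68 members at ZT4 and 52 at ZT16 had an unadjusted p under 0.05. By adjusted p under 0.05, a stricter rule that 0 members passed, 0.176% of all genes were called at ZT4 and 0.709% at ZT16. The share of all genes with an unadjusted p under 0.05 in that fit is not given here, so the 68 and 52 have no like share beside them. Unadjusted p under 0.05 was reached by 1 member at ZT20, Rpl7a, without those terms, and by none at the other times. The 2 smallest p at each time belonged to Rpl38 and Rps29 at ZT0 and ZT16, Rps29 and Rpl37 at ZT4, Rps29 and Rps12 at ZT8, Rpl37 and Rpl35a at ZT12, and Rpl7a and Rpl29 at ZT20. Rpl7a, with a log2 fold change of 0.22 ± 0.10 at ZT20 (SE), was furthest from 0, and its adjusted p was 0.602 (edgeR).

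Whether the difference between labels varied with time was tested directly. The F test that the 6 differences are equal called 0 members and 0% of all genes in edgeR, and 0 members by DESeq2 and limma-voom, with no member at an unadjusted p under 0.05. The smallest unadjusted p were 0.384 for Rps29 and 0.458 for Rpl7a. A difference in 24 h rhythm between the labels was likewise called for 0 members and 0% of all genes by edgeR, for 0 members by DESeq2 and limma-voom, and no member had an unadjusted p under 0.05, with Rps29 and Rpl37 lowest at 0.402 and 0.446.

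Rpl3, Rpl8 and Rpl37 lie on chromosome 15, the chromosome of Col14a1, and were set apart for that reason. Rpl3, which reaches to the peptidyl transferase centre, averaged 1170 ± 133 CPM under the KO label and 1183 ± 154 CPM under the WT label (SD, n = 24 each). Rpl8 and Rpl37 were also within the spread of the family, and the median log2 fold change of these members was -0.01.

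Over the day the members followed 2 peaks rather than 1. Averaged over both labels, the summed share was 4.22% ± 0.356 at ZT0, 4.79% ± 0.422 at ZT4 and 4.52% ± 0.332 at ZT8, and then 4.30% ± 0.270 at ZT12, 4.98% ± 0.494 at ZT16 and 4.34% ± 0.291 at ZT20 (SD, n = 8 each). The highest time mean was at ZT16 in 71 members and at ZT4 in the other 4, and the lowest was at ZT0 in 54, at ZT12 in 15 and at ZT20 in 6. In edgeR an F test of any difference between the 6 times called 40 of 75 members (53.3%), against 45% of all genes. By that test the members were near the background. The same held in limma-voom, with 40 members against 45% of all genes. DESeq2 called 55 of 75, well above the 49.8% of all genes that it called. Among the smallest p were those of Rpl14, Rpl31, Rpl28, Rpl3, Rpl26, Rpl10a, Rps3, Rpsa, Rps15, Rpl12, Rps23, Rpl13 and Rps18, with adjusted p between 0.0101 and 0.0251 (edgeR).

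A pattern with a period of 24 h was called for 0 members, against 26.6% of all genes, in edgeR, and for 0 by DESeq2 and limma-voom, with no member at an unadjusted p under 0.05. The 5 smallest p, none of which passed, belonged to Rps15a, Rps18, Rps21, Rpl37 and Rpl36, with 24 h amplitudes of 0.06 to 0.07 on the log2 scale. A component with a period of 12 h, added after the time course had been seen, was called for 55 of 75 members (73.3%), against 27.7% of all genes (edgeR). DESeq2 called 60 and limma-voom 56, and all 40 members called in the test of any time difference were among the 55. The members were not chosen on time of day, but the 12 h shape was, so the count describes these libraries and is not independent evidence for that shape. With 1 day sampled every 4 h there were 3 times in each 12 h cycle.

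The 12 h amplitude, the distance from the mean to the peak, had a median of 0.11 on the log2 scale, with a range from 0.04 to 0.15 and jackknife standard errors between 0.03 and 0.05. The 24 h amplitude had a median of 0.04. The 12 h amplitude was the larger in 74 of 75 members, against 50.4% of all genes. Among the 55 called members the fitted peak fell between 4.31 and 5 h after ZT0, and again 12 h later.

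**Figure D3:**
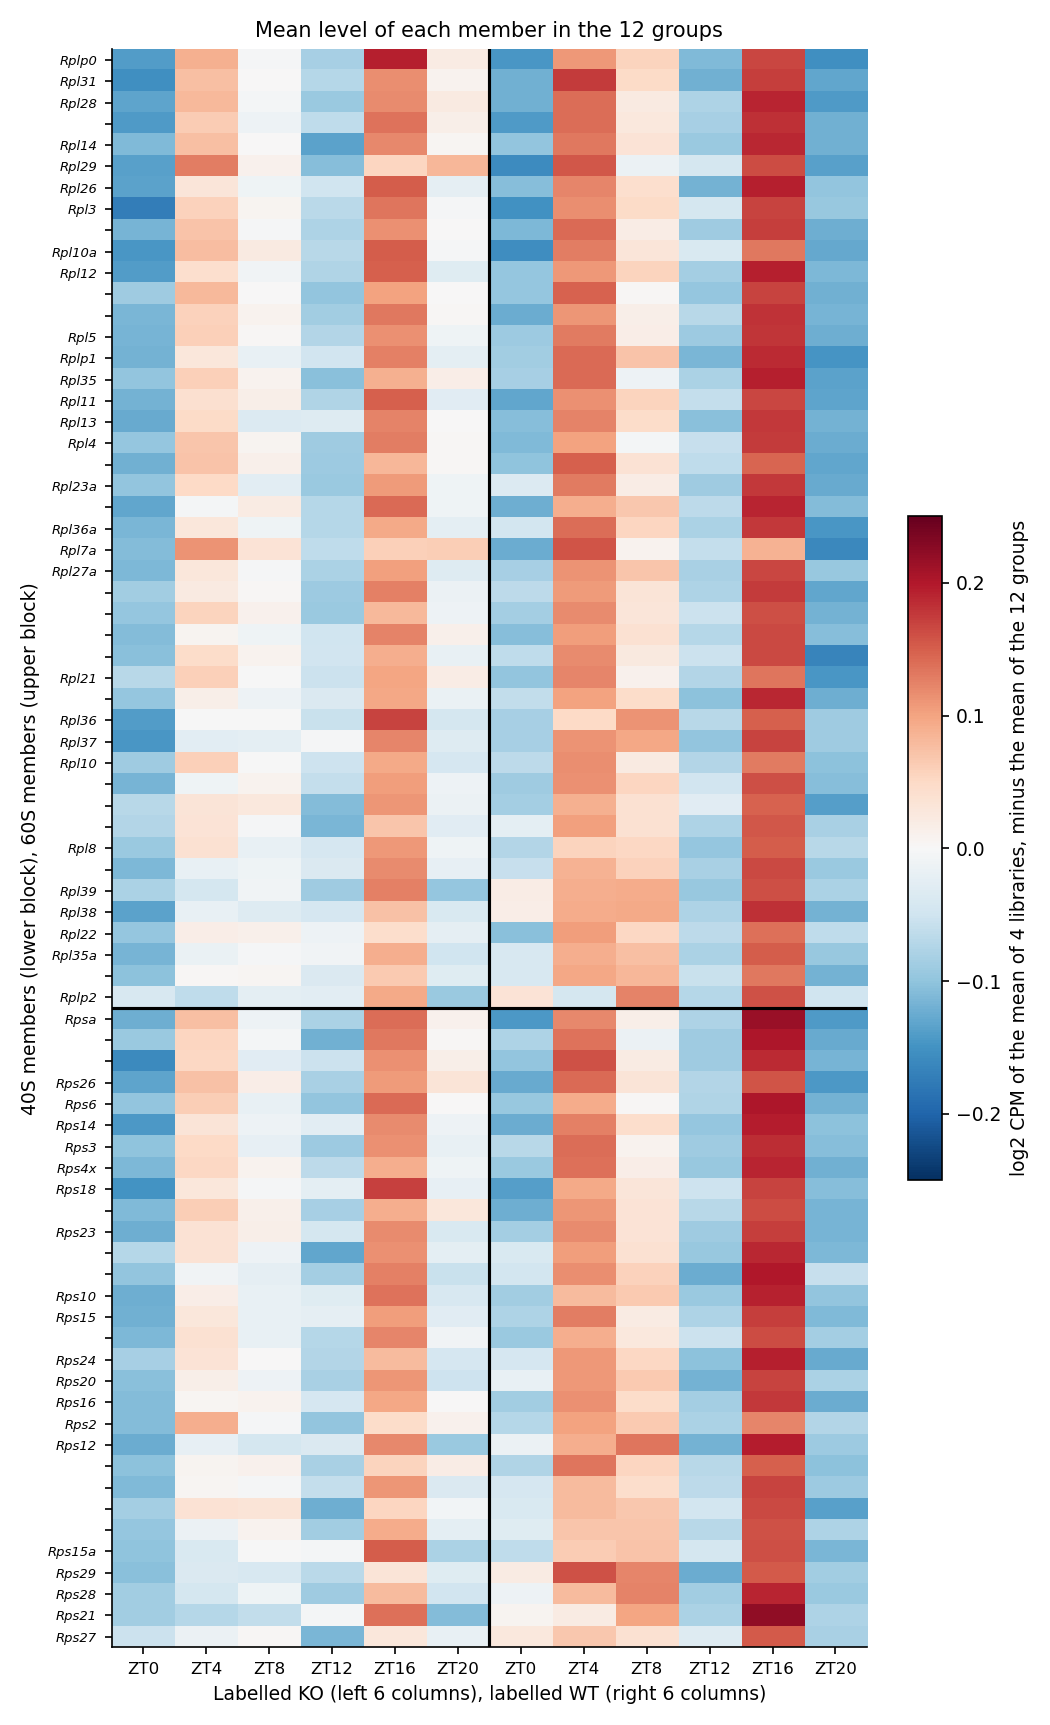
Mean level of each of the 75 members in the 12 groups, as log2 CPM minus the member's mean over the groups, with times low to high and the groups labelled KO left of those labelled WT. Within each subunit members are ordered by 12 h amplitude, with names for those named in the text; the columns at ZT4 and ZT16 are above the mean in most members, and Rplp2 and Rps27 end the 2 blocks.

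Rpl14, a 60S protein, had the smallest p for the 12 h component. It was at 600, 439, 524 and 452 CPM in libraries labelled KO at ZT0, against 593, 485, 472 and 481 CPM in those labelled WT. At ZT4 it was at 539, 543, 602 and 605 CPM in libraries labelled KO, against 649, 564, 550 and 618 CPM in those labelled WT. At ZT8 it was at 500.5, 611, 478 and 587 CPM in libraries labelled KO, against 531, 599, 596 and 501 CPM in those labelled WT. Both labels had high and low libraries at ZT8, which overlapped those at ZT0 and ZT4. At ZT12 it was at 507, 536, 473 and 467 CPM in libraries labelled KO, against 506, 521, 437 and 575 CPM in those labelled WT. In each label 2 of the 4 libraries at ZT4 were above every library of that label at ZT0 and ZT12, and the other 2 overlapped a high library at ZT0 and, under the WT label, 1 at ZT12. At ZT16 Rpl14 was at 534, 571, 659 and 599 CPM in libraries labelled KO, against 497, 659, 566 and 754 CPM in those labelled WT. At ZT20 it was at 568, 525, 578 and 510.2 CPM in libraries labelled KO, against 544, 467, 525 and 465 CPM in those labelled WT. The libraries at ZT16 spread most, and the highest of all, at 754 CPM, was 1 of them. Its 12 h amplitude was 0.14 ± 0.04 (SE), a trough-to-peak ratio of 1.21, with a peak at 4.72 h (adjusted p = 0.00329, edgeR).

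Rpl31 and Rpl28, also 60S proteins, came next. Rpl28 averaged 499 ± 66.7 CPM at ZT0, 588 ± 41.0 at ZT4 and 548 ± 61.4 at ZT8, and then 514 ± 48.4 at ZT12, 606 ± 85.3 at ZT16 and 523 ± 43.4 at ZT20 (SD, n = 8). The ranges at ZT4 (535 to 675 CPM) and ZT0 (436 to 608 CPM) overlapped. The 12 h amplitude was 0.14 ± 0.04 for Rpl28 and 0.15 ± 0.04 for Rpl31 (SE), with adjusted p of 0.00483 and 0.00481 (edgeR).

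In the 40S subunit the smallest p belonged to Rps3, which helps form the mRNA entry channel, and to Rpsa, the laminin receptor protein on the solvent side. Rps3 averaged 804 ± 111 CPM at ZT0, 911 ± 63.8 at ZT4 and 849 ± 71.1 at ZT8, and then 801 ± 64.0 at ZT12, 946 ± 114 at ZT16 and 817 ± 59.5 at ZT20 (SD, n = 8). Rpsa averaged 1143 ± 181 CPM at ZT0, 1341 ± 91.2 at ZT4 and 1254 ± 137 at ZT8, and then 1187 ± 114 at ZT12, 1419 ± 199 at ZT16 and 1199 ± 121 at ZT20. Their 12 h amplitudes were 0.13 ± 0.04 and 0.14 ± 0.04 (SE), with adjusted p of 0.00596 and 0.00727 (edgeR).

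By role, where differences were not tested, the 12 h component was called for 35 of 45 members of the 60S subunit and 20 of 30 of the 40S subunit. Over all members it was called for 73.3%, against 27.7% of all genes. It was called for 5 of 5 members at the peptidyl transferase centre and tRNA contacts (Rpl10, Rpl10a, Rpl3, Rpl36a and Rpl8), 5 of 5 at mRNA entry and decoding (among them Rps3, Rps15 and Rps23) and both 5S ribonucleoprotein members, Rpl5 and Rpl11, which are also known to bind MDM2. It was called for 4 of 6 members at the exit tunnel (Rpl26, Rpl23a, Rpl4 and Rpl35), 3 of 4 of the stalk, and 4 of 7 at the mRNA exit and solvent side of the 40S subunit (among them Rpsa, Rps14 and Rps26). Among the rest it was called for 21 of 28 members of the 60S and 11 of 18 of the 40S subunit, the last including Rps6, the substrate of S6 kinase. The largest 12 h amplitude was that of Rplp0, 0.15 ± 0.05 (SE; adjusted p = 0.0229, edgeR).

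Calls were less frequent among members with short mRNAs, a difference that was not tested. Of 18 members with a transcript under 500 bases 7 were called, and of 57 with a longer one 48, against 27.7% of all genes. Over all genes the share called varied little with length, from 26% under 1000 bases to 29.3% at 4000 bases or more. Rplp2, a stalk protein, was lowest in 12 h amplitude, at 0.04 ± 0.04 (SE; adjusted p = 0.576, edgeR). It averaged 384 ± 41.1 CPM at ZT0, 371 ± 20.5 at ZT4 and 399 ± 56.4 at ZT8, and then 372 ± 33.9 at ZT12, 421 ± 52.3 at ZT16 and 366 ± 20.3 at ZT20 (SD, n = 8), so it was high at ZT16 but not at ZT4. Rps27, whose counts were shared with Rps27rt, had 0.06 ± 0.04 (adjusted p = 0.383) and Rps21 0.08 ± 0.04 (adjusted p = 0.177, edgeR). Across 74 members Spearman's rho between transcript length and 12 h amplitude was 0.54, as a description.

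**Figure D4:**
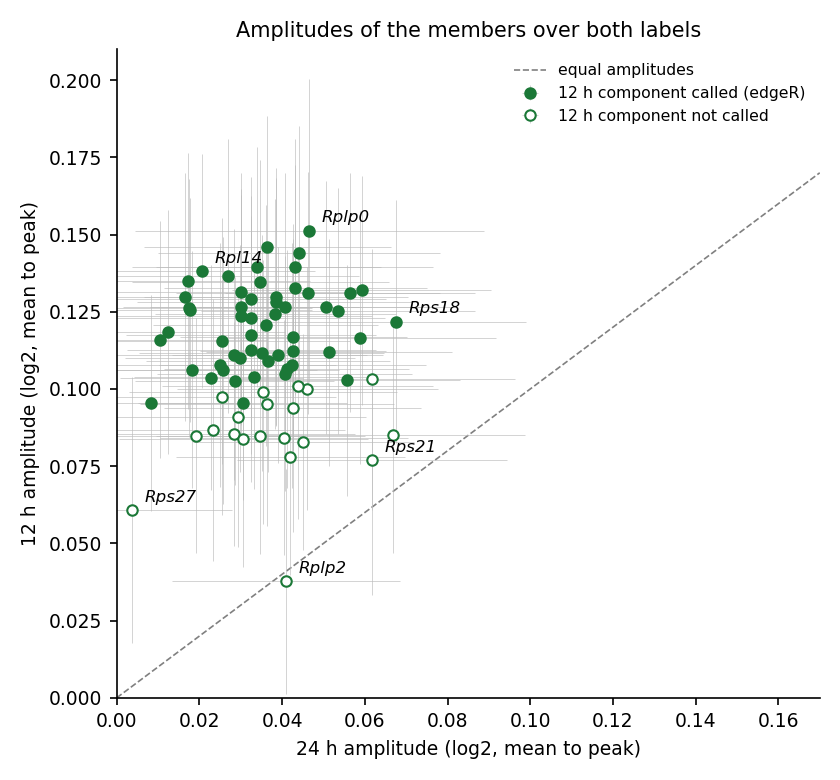
Amplitude of each member at a period of 12 h against that at 24 h, both as log2 distance from mean to peak over both labels, with jackknife standard errors. Filled points passed the 12 h test in edgeR; every point except that of Rplp2 lies above the dashed line of equal amplitudes.

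The 12 h counts held in some settings and shrank in others. With terms for Xist and Y-linked expression 51 members were called, against 26.3% of all genes. Without 3 libraries labelled WT (ZT4 replicates 3 and 4 and ZT16 replicate 2) 36 members were called, against 21.4% of all genes. These 3 were picked from earlier results of these data that are not shown here. Col14a1 was at 4.13 CPM or less in every library labelled WT, these 3 included. With 2 surrogate variables 22 of 75 were called, against 22.1% of all genes, so the members were then much nearer the background. Leaving out 1 library at a time gave between 37 and 67.

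The test of any time difference was far less even. Without those 3 libraries it called 6 members, against 38.8% of all genes. With 1 library left out at a time the test called between 6 and 62, with no share of all genes given here. It called 6 without KO ZT16 replicate 3 or WT ZT16 replicate 4, 19 without WT ZT16 replicate 2, 23 without KO ZT0 replicate 4, 24 without WT ZT0 replicate 2, 25 without KO ZT12 replicate 4, KO ZT16 replicate 4, KO ZT0 replicate 2 or WT ZT12 replicate 3, 26 without KO ZT12 replicate 3, WT ZT0 replicate 3 or WT ZT0 replicate 4, and 62 without KO ZT0 replicate 1.

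Single steps between neighbouring times, also added after the time course had been seen, gave the direction of each change. From ZT0 the step to ZT4 had a median log2 fold change of 0.17 over the members and was called for 9, all higher at ZT4, against 6.32% of all genes called higher (edgeR). Rpl7a, Rpl10a and Rpl31 had the smallest p, with log2 fold changes of 0.25 ± 0.07, 0.25 ± 0.08 and 0.26 ± 0.08 (SE). The step from ZT12 to ZT16 had a median of 0.21 and was called for 27, all higher at ZT16, against 8.29% of all genes, among them Rpl14 with 0.27 ± 0.08 (SE). The step from ZT16 to ZT20 had a median of -0.21 and was called for 5 (6.67%), all lower at ZT20. That share is near the 4.87% of all genes called lower. The 5 were Rps21, Rps15a, Rps10, Rps15 and Rps23. With terms for Xist and Y-linked expression, the counts were 50, 0 and 0 for these steps and the medians 0.16, 0.10 and -0.10; in that fit 9.73% and 3.71% of all genes were called higher at the first 2 steps and 4.04% lower at the last. The counts also depended on single libraries, from 1 (without KO ZT4 replicate 3) to 37 (without KO ZT0 replicate 1) for the first step, from 0 (without WT ZT16 replicate 4) to 62 (without WT ZT16 replicate 1) for the second and from 0 (without KO ZT16 replicate 3) to 50 (without WT ZT16 replicate 1) for the last. Shares of all genes without single libraries are not given here. The remaining steps, ZT20 to ZT0, ZT4 to ZT8 and ZT8 to ZT12, were called for 0 members by edgeR, DESeq2 and limma-voom, with 0 at an unadjusted p under 0.05, against 2.21%, 9.63% and 7.93% of all genes.

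Other measures moved over the day with the family. Malat1, a long RNA kept in the nucleus, averaged 1224 ± 360 CPM at ZT0, 888 ± 189 at ZT4 and 1120 ± 192 at ZT8, and then 1220 ± 175 at ZT12, 959 ± 208 at ZT16 and 1228 ± 195 at ZT20 (SD, n = 8), low where the members were high, and its own 12 h component had an adjusted p of 0.00727 (edgeR). Short mRNAs in general moved the same way. The median log2 fold change of ZT16 over ZT12 was 0.08 in 1258 genes with transcripts under 1000 bases, 0.02 in 3633 genes of 1000 to 1999 bases, 0.00 in 5715 genes of 2000 to 3999 bases and -0.03 in 3414 longer ones. The same medians for ZT4 over ZT0 were 0.06, 0.02, -0.01 and -0.04. The part of Malat1 and of transcript length in the members' time course was not tested. In bulk tissue, fewer cells of a type and less RNA per cell cannot be told apart. Of the cell type markers, 0 of 6 basal and 2 of 6 suprabasal keratinocyte genes were called for a 12 h component, and median summed basal levels lay between 23350 CPM at ZT0 and 27990 CPM at ZT16. Also called were 2 of 3 macrophage markers, 2 of 4 sebaceous gland markers and 1 marker each of hair matrix, melanocyte and skeletal muscle, against 27.7% of all genes. Macrophage markers together were scarce, with medians of 5.17, 2.86, 4.45, 5.52, 2.95 and 4.02 CPM over the 6 times, lowest at ZT4 and ZT16. Sebaceous markers had medians of 946, 767, 759.7, 827, 603 and 1029 CPM, lowest at ZT16. Their part in the members' time course was not tested.

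Other genes of the ribosome and its control were taken from 6 lists. Ribosomal protein genes that the symbol rule misses, paralogues and fusion genes included, had 8 of 12 listed genes tested. Of the 8, 5 were called for the 12 h component and 0 for the 24 h rhythm. Rpl7l1 and Rps3a1 were among them, with 12 h amplitudes of 0.11 and 0.13 and peaks at 3.77 and 4.76 h. Other translation genes with a TOP tract had 17 of 23 called for 12 h and 2 for 24 h. Eif3a and Eif3l, subunits of initiation factor 3, peaked at 3.69 and 4.60 h, while Eif4a2, a helicase of initiation factor 4, peaked at 10.8 h with an amplitude of 0.16. Mitochondrial ribosomal proteins had 38 of 78 called for 12 h and 9 for 24 h, led by Mrps34, Mrpl43 and Mrpl17 with peaks at 4.68, 4.73 and 4.30 h.

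Genes that build ribosomes were called for both periods. Ribosome biogenesis factors had 23 of 49 called for 12 h and 31 of 49 for 24 h, against 27.7% and 26.6% of all genes, with a median 24 h amplitude of 0.10 against 0.04 in the members. The smallest p for 12 h belonged to Nip7, which peaked at 3.84 h, and to Sbds, which helps release the 60S subunit for use, and Mdn1, which peaked at 10.8 and 10.98 h. RNA polymerase I genes had 4 of 11 called for 12 h and 5 of 11 for 24 h, and the polymerase's largest subunits Polr1a and Polr1b had 24 h amplitudes of 0.18 each with peaks at 17.5 and 15.8 h. Genes of mTOR signalling to translation had 9 of 24 called for 12 h and 8 for 24 h. The smallest p for 12 h belonged to Rictor, Ddit4 and Tsc1; Ddit4, an inhibitor of mTOR, peaked at 3.15 h and Tsc1, part of another inhibitor, at 9.77 h. Among the 9 called genes Eif4e peaked at 2.77 h and Larp1 at 10.3 h, against 4.31 to 5 h in the called members. Larp4 at 0.06 h and Rps6kb1 at 11.97 h peaked at nearly the same point, since the cycle is 12 h long. None of the genes in these 6 lists was called for KO minus WT averaged over times (edgeR); whether the lists differ from the members was not tested.

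The difference called for the most members was that between the libraries with and without Xist. This comparison was added after the data had been seen, and the sets are defined by a measured RNA and not by the labels. The summed share was 4.33% ± 0.382 in the 24 Xist-expressing libraries and 4.72% ± 0.424 in the other 24 (SD). With group kept in the model, 74 of 75 members were lower in the Xist-expressing libraries, against 18.7% of all genes called lower (edgeR). DESeq2 called 75 and limma-voom 74. The log2 fold changes ran from -0.34 to -0.11 with a median of -0.21.

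Rplp0 differed most. It ranged from 1561 to 2363 CPM around a median of 1998 CPM in Xist-expressing libraries, against 1764 to 3147 CPM around 2483 CPM in the others. The ranges overlapped, but the median of the others lay above every Xist-expressing library. The log2 fold change was -0.34 ± 0.04 (SE; adjusted p = 2.43e-08, edgeR). Rpl28 had a range of 440 to 594 CPM and a median of 497 CPM in Xist-expressing libraries, against 436 to 744 CPM and 588 CPM in the others, with a log2 fold change of -0.24 ± 0.03 (SE; adjusted p = 3.19e-07, edgeR). Rpl22, a 60S protein that mouse cells can do without, was the only member without a call, at -0.11 ± 0.05 (SE; adjusted p = 0.0538, edgeR).

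**Figure D5:**
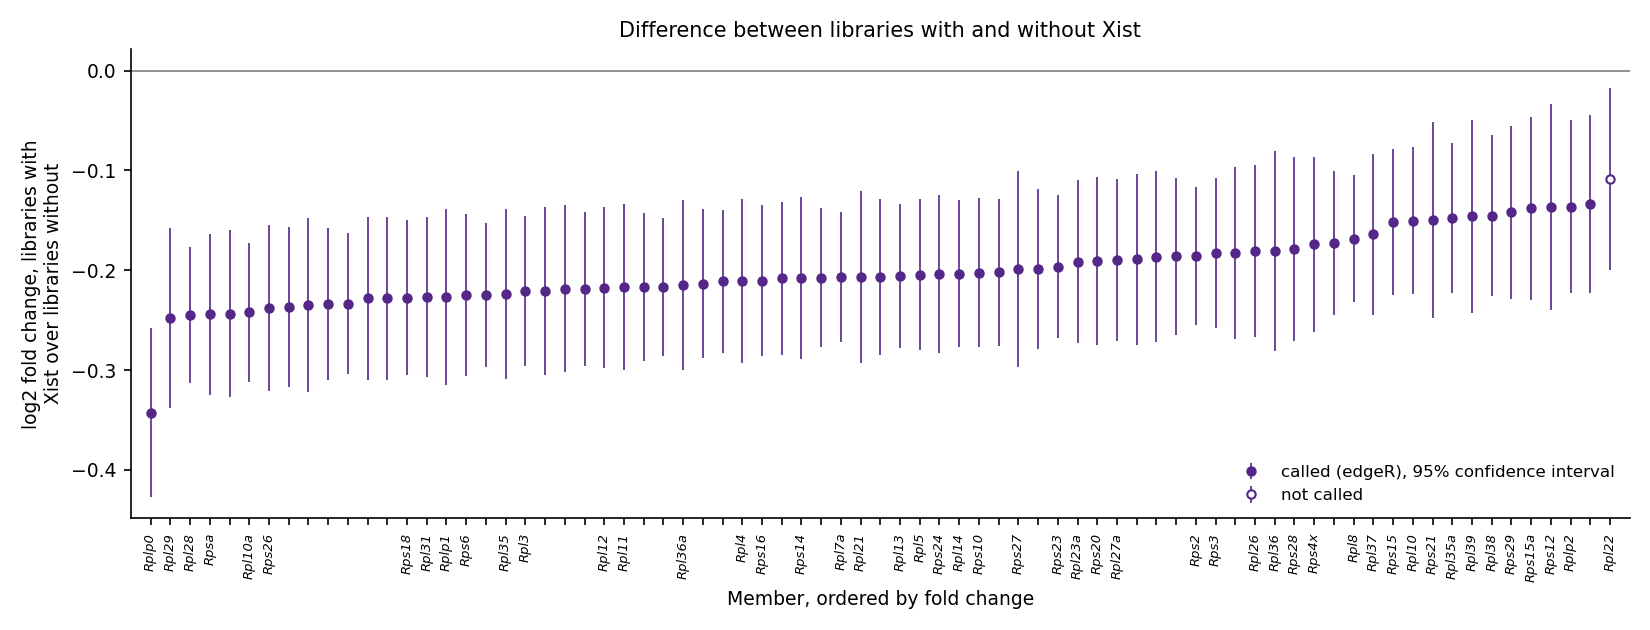
Log2 fold change of each member, the 24 Xist-expressing libraries over the other 24, from the 12-group model with a term for Xist above 100 CPM, with 95% confidence intervals and names for members named in the text. All 75 estimates lie below 0, from -0.34 for Rplp0 to -0.11 for Rpl22.

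Both subunits took part, with a median log2 fold change of -0.20 in the 30 members of the 40S and -0.21 in the 45 of the 60S subunit. The 4 members on the X chromosome, Rpl10, Rpl36a, Rpl39 and Rps4x, were lower as well, with a median of -0.16. In the libraries labelled KO the summed share was 4.21% ± 0.216 in 9 Xist-expressing libraries and 4.64% ± 0.393 in the 15 others, and in those labelled WT it was 4.403% ± 0.445 in 15 and 4.86% ± 0.462 in 9 (SD). By time, the mean share was lower in Xist-expressing libraries at 5 of 6 times; at ZT4 it was 4.91% in 3 Xist-expressing libraries and 4.72% in 5 others, with 1 Xist-expressing library at 5.70%. With 2 surrogate variables 0 members were called by edgeR, with a median of 0.08 in the opposite direction, and 4.05% of all genes were called lower. Those variables were estimated with only the groups of label and time kept. They can therefore take up the Xist difference itself, so that fit cannot show whether the members' difference holds.

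Several other signals went with Xist. In this comparison 37.7% of all genes were called in either direction (edgeR), the share that stands beside the marker counts below. Malat1 was at 1207 ± 166 CPM in Xist-expressing libraries and 1006 ± 292 CPM in the others (SD, n = 24 each; log2 fold change 0.29 ± 0.09 SE; adjusted p = 0.00648, edgeR). Sebaceous gland markers, 4 genes together, ranged from 682 to 1617 CPM in Xist-expressing libraries, against 454 to 853 CPM in the others, and all 4 were called. Fibroblast and dermis markers, 6 genes together, ranged from 2.87 to 12.5 CPM in Xist-expressing libraries, against 6.26 to 309 CPM in the others, and all 6 were called. Basal keratinocyte markers had a median of 24050 CPM in Xist-expressing libraries and 26780 CPM in the others, with 4 of 6 called, and suprabasal markers 19990 CPM and 24800 CPM, with 3 of 6 called. Immune markers were higher by median in Xist-expressing libraries, with T cell markers at 56.2 CPM against 47.6 CPM (3 of 4 called), Langerhans cell markers at 411 CPM against 322 CPM (3 of 4), macrophage markers at 4.54 CPM against 3.18 CPM (2 of 3) and mast cell markers at 2.78 CPM against 2.04 CPM (2 of 2 tested). Genes with transcripts under 1000 bases had a median log2 fold change of -0.06, and 31.9% of them were called lower. Their part in the members' difference was not tested. Of the lists, 6 of 8 ribosomal protein genes that the symbol rule misses, 17 of 23 TOP translation genes and 37 of 78 mitochondrial ribosomal proteins were called lower (edgeR). So were 11 of 49 biogenesis factors, 4 of 11 RNA polymerase I genes and 6 of 24 mTOR genes. Of all genes 18.7% were called lower, which the shares of the biogenesis and mTOR lists lie near. Called higher were 4 mTOR genes, 2 mitochondrial ribosomal proteins, 1 TOP translation gene and 1 biogenesis factor, against 19% of all genes.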

How the data were processed

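Poly(A) RNA of mouse epidermis was sequenced in 48 libraries, 4 in each of 12 groups of label and Zeitgeber time. The authors deposited whole-number counts per Entrez gene ID with no normalisation; the submitters' processing notes name STAR 2.7.10a, featureCounts, Trim Galore and the GRCm38 (mm10) build, but no source used here gives the annotation, strand or multi-mapping settings. Per the labels' protocols the library kit keeps strand. Of the IDs 25275 took their symbol from RefSeq and 18 from GENCODE; 1886 IDs with 4.65% of all counts had no name.

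Genes were kept by filterByExpr (17068 genes) and totals scaled by TMM (factors 0.919 to 1.07) in edgeR 4.0.16 under R 4.3.3. A model of 12 group means was fitted to all libraries with glmQLFit (robust) and tested with glmQLFTest. Contrasts were KO minus WT averaged and at each time, F tests of their equality and of any time difference, and, added after the data were seen, a 12 h component, steps between times and a term for Xist above 100 CPM. A second model held a 24 h cosine and sine per label. P-values were adjusted by Benjamini-Hochberg over all genes and called under 0.05. Log2 levels used a prior count of 2, and amplitudes have jackknife errors over libraries. The labels call the 4 libraries of a group biological replicates, and no 2 libraries of a group agreed within sampling noise. The scripts were tested on simulated data.

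Transcript length was the shortest protein-coding basic transcript with a CCDS in GENCODE M21, and copies were found with blastn 2.17.0. Members and gene lists were chosen with earlier results of these data known. Named were up to 20 called members for the averaged difference or else the 5 smallest p, the 2 smallest p for each single time and difference test, up to 15 members for any time difference, the 5 smallest p for the 24 h rhythm and the 12 h component, the members on chromosome 15, the 4 highest and lowest per length, the 5 with the most spread of their own, and from each list up to 3 called genes; others are named as examples after their values were seen, and some genes these rules select are not reported here. Alternatives were RLE factors, totals without the members, DESeq2 1.42.0, limma-voom (limma 3.58.1), 2 other filters, a replicate block, sex-linked terms, pseudogene rows added, 3 libraries left out, 2 surrogate variables (sva 3.50.0) and each library left out in turn.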

Additional observations from a re-analysis of the deposited data

Results flagged for a closer look

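Among 4 libraries of a group, 1 value stood far from the other 3 in 5 of 216 groups screened, over 17 named members and the summed share; chance alone would mark about 5% of groups, so the number is below that. Rpl3 was at 1098 CPM in KO ZT4 replicate 1, against 1252 to 1270 CPM in the others of its group. Rps12, a 40S protein, was at 539.5 CPM in KO ZT4 replicate 3, against 465.9 to 476.6 CPM. Rps29 was at 442.4 CPM in KO ZT16 replicate 3, against 324.6 to 331.4 CPM. Rpl29 was at 75.04 CPM in WT ZT8 replicate 4, against 88.95 to 90.39 CPM. Rpl14 was at 593.5 CPM in WT ZT0 replicate 1, against 472.3 to 485.2 CPM. KO ZT16 replicate 3, high in Rps29, had a summed share of 5.496%, below only the shares of 5.83% and 5.70% in WT ZT16 replicate 4 and WT ZT4 replicate 1.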

How the results depend on the processing

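Counts of members called for KO minus WT, averaged or at single times, for its change with time and for a difference in rhythm were 0 under all 11 alternatives and without each library in turn. The 24 h rhythm had 3 members with 2 surrogate variables, against 32.4% of all genes, and 0 otherwise. The count for any time difference moved from 40 to 26 with no filter beyond 1 read, against 30.3% of all genes. It moved to 6 without 3 libraries labelled WT, against 38.8%. The 12 h count moved from 55 to 36 without those 3 and 22 with 2 surrogate variables, against 21.4% and 22.1% of all genes. The step to ZT4 had 14 with DESeq2, 5 with no filter, 50 with sex-linked terms, 1 without the 3 libraries and 17 with 2 surrogate variables. Of all genes 16.5%, 9.05%, 20.7%, 10.7% and 16.1% were called in either direction at that step, in the same order. The step to ZT16 had 50, 12, 0, 3 and 0 under the same alternatives, against 18.9%, 9.62%, 8.3%, 8.82% and 8.62% of all genes in either direction. The step to ZT20 had 27, 2, 0 and 1 under the first 4, against 11.4%, 5.29%, 7.22% and 5.74%. With 2 surrogate variables the Xist comparison had 0 members and a median of 0.0782, the opposite sign, with 4.05% of all genes called lower. These variables were not kept apart from Xist and can take up its difference, so that fit cannot decide whether it holds. The cause was not tested.

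Without each library in turn the counts ranged from 6 to 62 for any time difference, 1 to 37 for the step to ZT4, 0 to 62 for the step to ZT16 and 0 to 50 for the step to ZT20, moving over 1.5 times without 13, 11, 16 and 33 of the 48 libraries. The 12 h count stayed between 37 and 67, and the Xist comparison was not run without single libraries. Shares of all genes in these fits are not given here.

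The replicate numbers were not taken to pair the libraries, since 11 of 24 same-numbered pairs, and not all, had correlated deviations over 0.1 (median r 0.09). All 4 pairs at ZT0 were over 0.1, and 20 of 48 libraries correlated best with their own number, a hint from the data and not the design. With the replicate number as a block 31 members were called for any time difference, against 44.9% of all genes. In that fit 54 were called for the 12 h component, against 28.1%. For the step to ZT20 3 were called in place of 5, against 4.79% of all genes called lower.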
